A study of Mus musculus with 12 samples.

Results

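The genes of major histocompatibility complex (MHC) class I antigen presentation were examined in differentiated mouse neurospheres. The 10 genes were chosen by name, with earlier results of these data known. They were the class I heavy chains H2-K1 and H2-D1, their light chain B2m, the peptide transporter subunits Tap1 and Tap2, the loading factor Tapbp, the immunoproteasome subunits Psmb8, Psmb9 and Psmb10, and the transcriptional regulator Nlrc5. All 10 were on the array, through 12 of its 55681 probes, and 11 of these 12 probes were expressed, as were 29361 probes in all. The 10 genes were thus 10 of 14330 expressed genes with a name.

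Neural progenitor cells were taken from the telencephalon of C57BL/6 embryos at day 13, grown as neurospheres with EGF and FGF2, and differentiated without these factors for 7 days. WT neurospheres came from wild-type embryos. APP_WT neurospheres came from APPswe/PS1dE9 embryos, a transgenic model of Alzheimer's disease, and received no drug. BK_APP and HOE_APP neurospheres came from APPswe/PS1dE9 embryos too and received 1 µM bradykinin (BK), a vasoactive peptide, or 1 µM HOE-140, an antagonist of the kinin B2 receptor, on days 0, 3 and 6 of differentiation. The sources used here do not name the transgene promoter or say how many embryos made up a culture.

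Each array held 2 conditions in 2 dyes. There were 4 arrays on which APP_WT was set against WT, 4 on which BK_APP was set against APP_WT and 4 on which HOE_APP was. The study counts 4 APP_WT replicates for these 12 arrays, so the comparisons share untreated APP_WT samples. For the HOE_APP arrays the sample labels give 1 treatment to both dyes. The direction of that comparison is therefore likely only, and rests on the first-channel labels together with the titles and a dye swap laid out as for BK_APP.

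Between 48.1% and 56.0% of the spots of an array were well above background. The probe of mouse App differed by 0.12 on the log2 scale between APP_WT and WT (limma adjusted p = 0.0925), and whether it binds the transgene RNA was not tested. The probes of both kinin receptors, Bdkrb2 and Bdkrb1, did not pass the expression filter. All 5 astrocyte markers, all 5 neuronal markers and all 4 progenitor markers were expressed, as were 11 of 12 microglial markers. Of the 7 markers of blood-borne leukocytes on the array 2 were expressed.

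MHC class I molecules show peptides from inside the cell to CD8 T cells and natural killer cells. The proteasome cuts cytosolic proteins into peptides, and in cells exposed to interferon the catalytic subunits Psmb5, Psmb6 and Psmb7 are replaced by Psmb8, Psmb9 and Psmb10, which favours peptides that fit class I grooves. The Tap1 and Tap2 heterodimer pumps these peptides into the endoplasmic reticulum, where tapasin, the product of Tapbp, holds the empty heavy chain and B2m at the pump until a peptide binds. Nlrc5 drives transcription of class I genes. In the brain, microglia express the pathway readily, while neurons and their progenitors show little of it unless stimulated.

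The proximal promoters were searched for short motifs, and none of these was found in every gene. RefSeq windows of 300 bases, from 250 before to 50 after the start of transcription, were available for 8 of the 10 genes in GRCm38.p6, and the 5 below were chosen because they cover the heavy chains, the light chain, the transporter and the immunoproteasome. Capitals mark matches on either strand to AANNGAAA, a core bound by interferon regulatory factors (IRF), to TTCNNNGAA, the gamma-activated site, and to CCAAT.

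B2m, chr2:122147437-122147736, plus strand: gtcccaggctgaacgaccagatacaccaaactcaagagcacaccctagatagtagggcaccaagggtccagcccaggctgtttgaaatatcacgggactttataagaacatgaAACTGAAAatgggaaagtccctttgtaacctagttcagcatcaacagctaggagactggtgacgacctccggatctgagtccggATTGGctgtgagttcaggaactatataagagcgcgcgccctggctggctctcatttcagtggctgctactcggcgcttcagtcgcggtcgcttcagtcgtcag
H2-K1, chr17:34000298-34000597, minus strand: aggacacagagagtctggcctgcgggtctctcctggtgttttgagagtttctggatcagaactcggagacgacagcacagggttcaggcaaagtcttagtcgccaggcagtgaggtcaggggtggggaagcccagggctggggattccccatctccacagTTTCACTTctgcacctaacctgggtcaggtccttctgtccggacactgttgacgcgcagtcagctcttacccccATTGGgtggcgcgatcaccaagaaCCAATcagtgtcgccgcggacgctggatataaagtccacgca
H2-D1, chr17:35262844-35263143, plus strand: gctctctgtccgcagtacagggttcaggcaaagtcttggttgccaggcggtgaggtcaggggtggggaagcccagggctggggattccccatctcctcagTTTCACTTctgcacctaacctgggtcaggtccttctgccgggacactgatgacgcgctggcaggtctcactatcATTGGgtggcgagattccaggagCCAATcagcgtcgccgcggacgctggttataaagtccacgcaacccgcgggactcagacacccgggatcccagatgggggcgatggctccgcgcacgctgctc
Tap1, chr17:34187306-34187605, plus strand: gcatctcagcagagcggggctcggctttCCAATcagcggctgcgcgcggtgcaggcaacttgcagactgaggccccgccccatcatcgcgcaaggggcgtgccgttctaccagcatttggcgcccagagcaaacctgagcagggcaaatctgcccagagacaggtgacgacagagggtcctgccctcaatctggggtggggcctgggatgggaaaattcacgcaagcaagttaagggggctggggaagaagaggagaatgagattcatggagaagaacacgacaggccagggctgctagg
Psmb8, chr17:34197945-34198244, plus strand: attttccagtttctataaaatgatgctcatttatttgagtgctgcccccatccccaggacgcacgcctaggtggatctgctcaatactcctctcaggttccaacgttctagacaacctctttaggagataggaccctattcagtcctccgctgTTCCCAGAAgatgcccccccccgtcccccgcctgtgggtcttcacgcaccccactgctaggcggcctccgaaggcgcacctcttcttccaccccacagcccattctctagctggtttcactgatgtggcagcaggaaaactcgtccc

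The IRF core was found in 3 of the 8 genes, B2m, H2-K1 and H2-D1, and in 23.9% of all 32817 promoter windows. In H2-K1 and H2-D1 the match was the same on the reverse strand, TTTCACTT, and in B2m it was AACTGAAA. The gamma-activated site was found in Psmb8 alone among the 8, and in 8.29% of all windows. CCAAT was found in 6 of 8, all but Psmb8 and Psmb10, and in 37.4% of all windows. Psmb9 and Tap1 lie head to head on chromosome 17 and their windows overlap by 275 bases, so a single stretch holds both starts. Their CCAAT matches are the same bases, so a single site is counted for both genes. A match is a description of the letters and not evidence of binding.

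All 10 genes rose in APP_WT relative to WT neurospheres. The log2 fold changes ran from 0.58 to 1.80 with a median of 1.43, against a median of 0.0039 over all expressed probes, and the limma adjusted p-values ran from 5.97e-07 to 4.03e-04. Tap1, Psmb8 and Psmb9 passed the expression filter only through APPswe/PS1dE9 samples, in which they were higher, so that their direction was in part set by the filter. The other 7 were well above background on all 4 arrays in WT too, and all 7 were called. By the same criterion 11.6% of all expressed probes were called higher and 7.00% lower in APP_WT. Each of the 10 genes had a ratio above 0 on all 4 arrays, which held for 15.1% of all probes. The normalised intensities of APP_WT and WT did not overlap for any of the 10, which held, with APP_WT higher, for 6.80% of all probes. SAM with rank products, at an unadjusted p of 0.05 or less in both, called the 10 genes higher as well, with 8.11% of all probes. These arrays measure RNA of whole cultures, in which more cells of a type and more RNA per cell cannot be told apart.

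**Figure D1:**
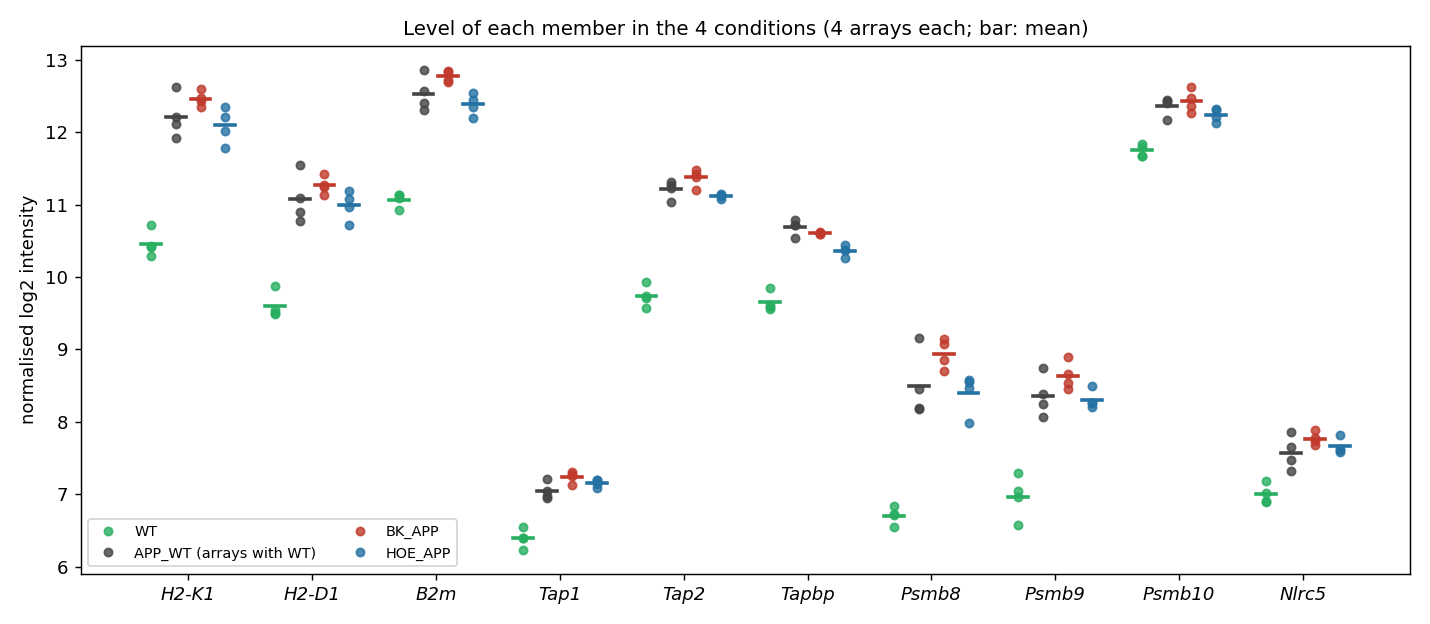
Normalised log2 intensity (vertical axis) of the 10 genes in WT (green), APP_WT (grey, on the arrays shared with WT), BK_APP (red) and HOE_APP (blue), 4 arrays each, with bars at the means. The WT points lie below all the APP_WT points for each gene, while treated and untreated APP_WT points mostly overlap; intensities of different genes are from different probes and cannot be ranked.

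Among the molecules that carry the peptide, H2-K1, 1 of the classical heavy chains, had log2 intensities of 10.43, 10.29, 10.41 and 10.71 in WT and of 12.11, 12.21, 11.91 and 12.62 in APP_WT. Every APP_WT value exceeded every WT value by more than 1 log2 unit. The log2 ratios within the 4 arrays were 1.68, 1.92, 1.503 and 1.91, giving a 3.37-fold increase (log2 fold change 1.75 ± 0.10 SE, limma adjusted p = 9.95e-07). A second H2-K1 probe gave a log2 fold change of 1.68 with adjusted p = 2.14e-06.

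H2-D1, the other classical heavy chain, had log2 intensities of 9.49, 9.496, 9.54 and 9.88 in WT and of 10.78, 11.09, 10.90 and 11.55 in APP_WT. It rose 2.78-fold (log2 fold change 1.48 ± 0.10 SE, limma adjusted p = 5.08e-06). The 2 heavy chains are close in sequence to each other and to the Q and T region genes, so a probe of one may take up RNA of another, and its part in these values was not tested.

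B2m, the invariant light chain that every class I heavy chain needs to reach the cell surface, had log2 intensities between 10.93 and 11.13 in WT and of 12.40, 12.56, 12.30 and 12.86 in APP_WT. Its ratios were 1.27, 1.48, 1.17 and 1.93, a rise of 2.76-fold (log2 fold change 1.46 ± 0.11 SE, limma adjusted p = 9.92e-06). The highest ratio of H2-D1 and B2m was that of replicate 4, and that of H2-K1 lay in replicate 2 with replicate 4 next to it.

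The immunoproteasome subunits rose by unequal amounts. Psmb8, the chymotrypsin-like subunit, had log2 intensities of 6.72, 6.54, 6.71 and 6.83 in WT and of 8.19, 8.18, 8.46 and 9.16 in APP_WT. Its log2 fold change was 1.80 ± 0.09 SE or 3.48-fold (limma adjusted p = 5.97e-07). In WT its probe was well above background on 1 of 4 arrays, so its WT value lies close to the lower end of the scale and the fold depends on the background correction.

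Psmb9, which takes the place of Psmb6, had log2 intensities of 7.29, 6.57, 6.96 and 7.05 in WT and of 8.25, 8.07, 8.38 and 8.74 in APP_WT. It rose 2.63-fold, with a log2 fold change of 1.39 ± 0.10 SE (limma adjusted p = 5.46e-06) and a WT signal well above background on 2 of 4 arrays. Psmb10, which takes the place of Psmb7, was bright in both conditions, between 11.68 and 11.84 in WT and between 12.16 and 12.45 in APP_WT. Its ratios of 0.61, 0.61, 0.49 and 0.76 gave a 1.53-fold increase (log2 fold change 0.61 ± 0.05 SE, limma adjusted p = 2.50e-05).

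The constitutive partners of these subunits did not pass the test. The log2 fold change in APP_WT versus WT was -0.0024 for Psmb5, 0.04 for Psmb6 and 0.14 for Psmb7, with limma adjusted p-values of 0.983, 0.652 and 0.318. Within each array the ratio of Psmb8 exceeded that of Psmb5 by 1.80 ± 0.28 (SD), that of Psmb9 exceeded that of Psmb6 by 1.35 ± 0.27, and that of Psmb10 exceeded that of Psmb7 by 0.48 ± 0.20. Each of these 3 differences was positive on all 4 arrays, and the exact two-sided sign permutation test gave p = 0.125, the smallest that 4 arrays allow (Benjamini-Hochberg adjusted p = 0.188 over the 9 tests of 3 pairs in 3 comparisons). With the background subtraction of the scanner software the differences were 2.99, 2.16 and 0.499.

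Of the genes that move peptides into the endoplasmic reticulum, Tap2 had log2 intensities of 9.94, 9.74, 9.70 and 9.58 in WT and of 11.23, 11.28, 11.03 and 11.31 in APP_WT. It rose 2.77-fold (log2 fold change 1.47 ± 0.09 SE, limma adjusted p = 1.76e-06). Tap1, its partner, was dim, between 6.23 and 6.55 in WT and between 6.95 and 7.21 in APP_WT. Its probe was well above background on none of the 4 WT arrays and on all 4 for APP_WT. The estimated rise was 1.57-fold (log2 fold change 0.65 ± 0.08 SE, limma adjusted p = 2.03e-04). The WT value lies close to the lower end of the scale, so this fold depends on the background correction. The lower value of Tap1 than of Tap2 cannot be read as a lower change of the RNA, because the Tap1 probe was near background in WT.

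Tapbp, which encodes tapasin, had log2 intensities between 9.56 and 9.85 in WT and between 10.54 and 10.79 in APP_WT. It rose 2.05-fold, with ratios of 0.87, 1.17, 0.94 and 1.15 (log2 fold change 1.03 ± 0.07 SE, limma adjusted p = 4.81e-06).

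Nlrc5, the class I transactivator, had log2 intensities of 6.89, 6.90, 7.18 and 7.02 in WT and of 7.32, 7.48, 7.65 and 7.85 in APP_WT. Its rise of 1.49-fold (log2 fold change 0.58 ± 0.08 SE, limma adjusted p = 4.03e-04) was of the size of that of Psmb10. A second Nlrc5 probe stayed near background and did not pass the expression filter, so the gene rests on a single probe.

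The size of the rise of the dim genes depended on how background was removed. With the scanner software's own background subtraction in place of the normexp correction with an offset of 50, the log2 fold change was 2.07 for Tap1, 2.96 for Psmb8, 2.18 for Psmb9 and 0.93 for Nlrc5, and each stayed past the threshold. The order of the 10 genes by fold change is therefore not fixed, and it also changed under median centring, where Psmb10 (0.45) fell below Nlrc5 (0.58).

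**Figure D2:**
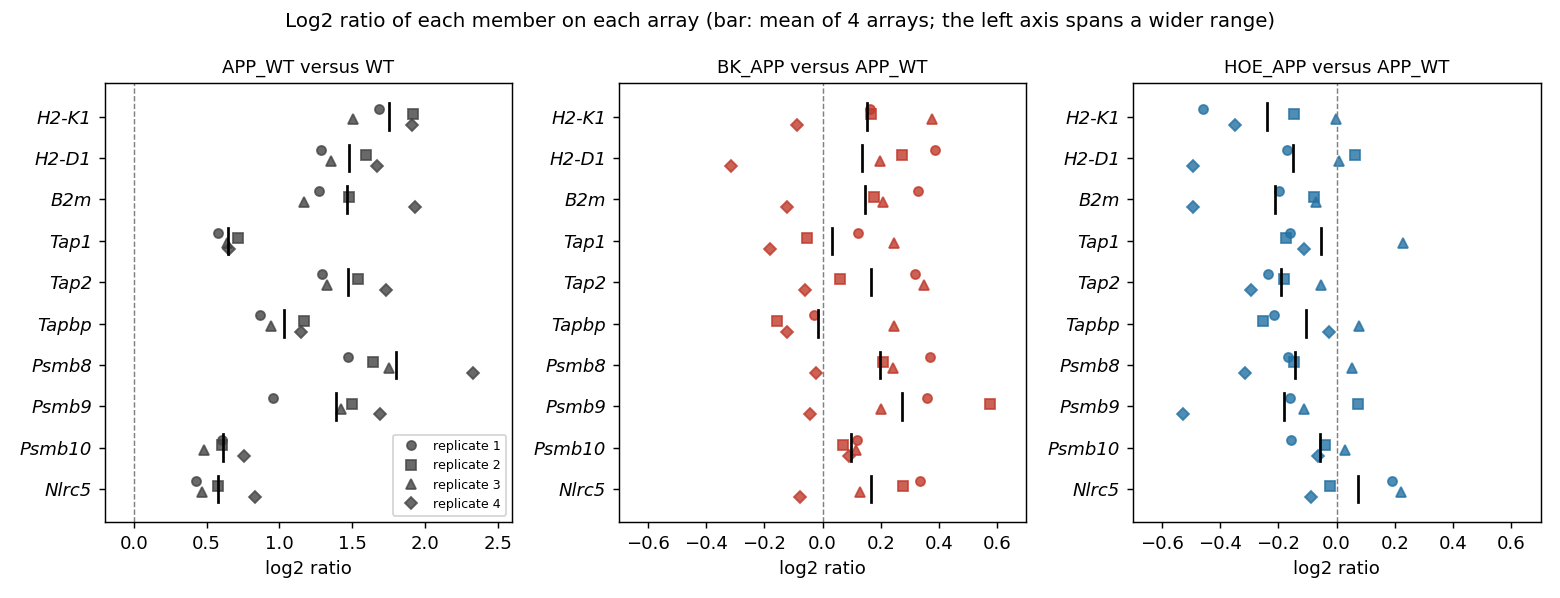
Log2 ratio (horizontal axis) of each gene on each of the 4 arrays of APP_WT versus WT (left, on a wider axis), BK_APP versus APP_WT (middle) and HOE_APP versus APP_WT (right). Symbols mark the replicate number and bars the mean of 4 arrays; all points of the left panel are above 0, and the diamonds of replicate 4 lie below 0 for 9 of 10 genes in the middle panel.

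The other genes of the pathway were described by their counts in lists drawn up by function. At the same limma threshold 11.6% of all expressed probes were called higher and 7.00% lower in APP_WT. For any listed gene or marker that passed the filter only through APPswe/PS1dE9 samples, the direction was in part set by the filter. In the list of peptide transport and loading, 5 of 9 expressed genes were called higher in APP_WT and 0 lower, at a median log2 fold change of 0.40. These were Tap1, Tap2, Tapbp, Tapbpl and Erap1, the aminopeptidase that trims peptides in the endoplasmic reticulum (0.40, limma adjusted p = 3.59e-04). Tapbpl and Erap1 were named after their values were seen. Lnpep, an endosomal aminopeptidase, had the lowest value, -0.02 with adjusted p = 0.805.

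Of the non-classical class I genes, 10 of 14 expressed were called higher and 1 lower, at a median of 0.54. H2-Q10, H2-M3 and Mr1, each called higher, passed the filter only through APPswe/PS1dE9 samples. Their WT signals were well above background on 0, 0 and 1 of 4 arrays. They were named after their values were seen. H2-T23, which encodes the ligand of the natural killer receptor CD94 with NKG2A, had the highest value, 1.64 ± 0.11 SE (limma adjusted p = 3.88e-06). Cd1d1, which presents lipids rather than peptides, was the 1 called lower, with a log2 fold change of -0.43 and an adjusted p = 5.35e-04. Probes of H2-Q genes may share RNA with those of H2-K1 and H2-D1, as above.

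Few genes of the rest of the proteasome passed the test. In the remaining 20S core list 0 of 11 expressed genes were called in either direction by limma, with 1 at an unadjusted p below 0.05, and the median was -0.05. An unadjusted p below 0.05 was reached by 9336 of all 29361 expressed probes. Of 21 expressed genes of the 19S cap 1 was called, Psmd14, which was lower at -0.23 with adjusted p = 0.0136. Of the activators and assembly factors 2 of 10 were called, both higher: Psme1 and Psme2, the subunits of the PA28 activator that interferon induces, at 0.21 and 0.17 (adjusted p = 0.0171 and 0.0495). Psme2 was named after its value was seen.

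Of the factors that regulate class I transcription 9 of 16 expressed were called higher and 2 lower. Irf1, which binds the interferon-response element of class I promoters, had the highest value, 1.25 ± 0.10 SE (limma adjusted p = 9.70e-06). Nfya, a subunit of the CCAAT-binding factor, had the lowest, -0.29 (adjusted p = 0.0120).

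Of the MHC class II pathway, 4 of 7 expressed genes were called higher and 0 lower. The highest was Ctss, a lysosomal protease, at 2.52 (limma adjusted p = 5.44e-08), with a WT signal well above background on 1 of 4 arrays, and the lowest Ifi30, at -0.09 (adjusted p = 0.25). H2-Aa, Cd74 and Ciita, which mark class II presentation, were on the array and did not pass the expression filter. Of the interferons and their receptors 4 of 6 expressed were called higher and 0 lower, led by Ifngr1 at 0.66 (adjusted p = 1.53e-04), while the probes of Ifnb1, Ifna2 and Ifna4 did not pass the filter. Ifng, named after its value was seen, was called at 0.36 (adjusted p = 0.0104), though its probe was well above background on only 2 of 4 arrays in each condition.

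**Figure D3:**
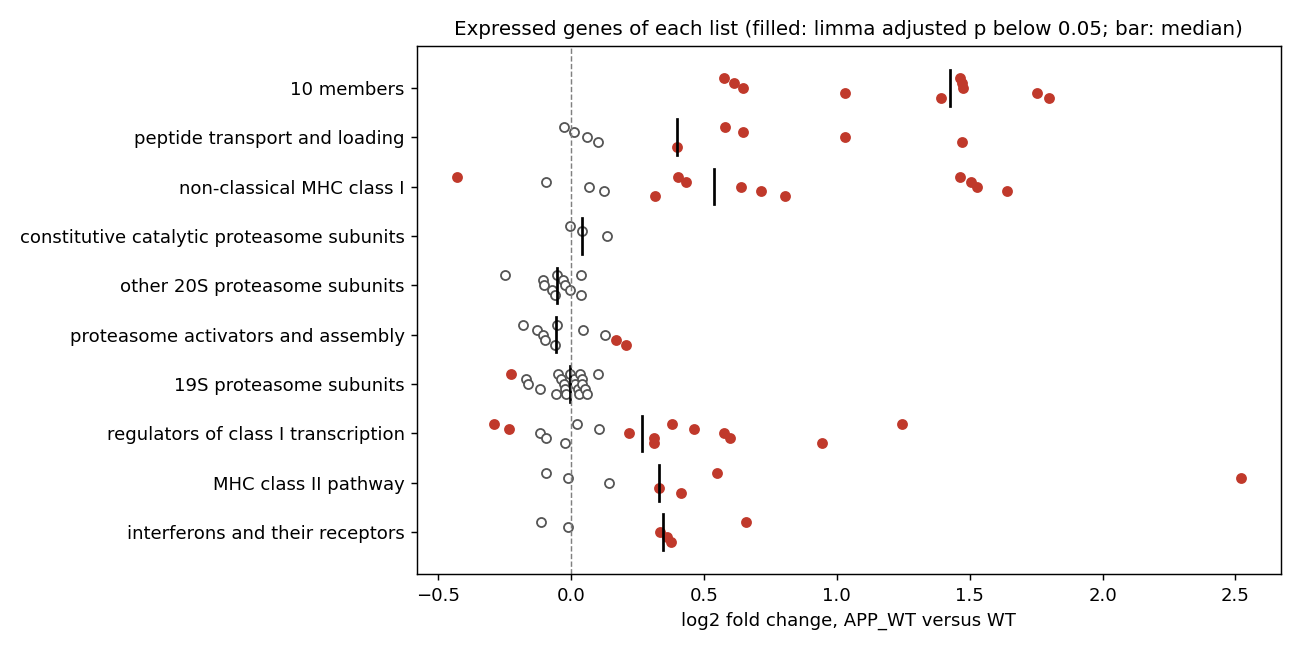
Log2 fold change in APP_WT versus WT (horizontal axis) of the expressed genes of each list; filled points passed a limma adjusted p of 0.05, open points did not, and bars are medians. The 10 genes lie at 0.58 and above, and the 3 constitutive catalytic subunits lie from -0.0024 to 0.14.

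Microglial markers rose in APP_WT as well. For the counts below, 11.6% of all expressed probes were called higher and 7.00% lower. Of 11 expressed microglial markers 10 were called higher in APP_WT and 0 lower, with a median log2 fold change of 1.16, from 0.11 for Itgam to 2.31 for Cx3cr1, and P2ry12 did not pass the filter. The summed intensity of the 10 microglial markers measured on all arrays ran from 9414 to 11685 in WT and from 12655 to 16354 in APP_WT. The median sums were 10510.5 and 13977, a smaller rise than the median log2 fold change. A sum of intensities gives most weight to the brightest probes. Of 5 astrocyte markers 4 were called higher, with a summed intensity from 45866 to 54822 in WT and from 65796 to 78807 in APP_WT. Of 4 progenitor markers Vim (0.97) and Nes (0.55) were called higher and Pax6 (-0.16) lower, with sums from 28623 to 38417 in WT and from 48748 to 63842 in APP_WT. Of 5 neuronal markers 1 was called higher and 2 lower, and of 5 expressed pericyte and fibroblast markers 3 were called lower. The part of these cell types in the class I values was not tested. The 2 expressed leukocyte markers, Nkg7 and Cd3e, differed by 0.08 and 0.02 without passing the test, and S100a8, S100a9, Ccr2 and Cd8a did not pass the filter.

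Bradykinin left the 10 genes without a call. Of the 10, 9 had a positive log2 fold change in BK_APP versus APP_WT and Tapbp a negative one, with a median of 0.15 against -0.0046 over all probes. No member was called by limma (adjusted p from 0.967 to 0.991), and 0% of all expressed probes were. At an unadjusted p below 0.05, 1 member was higher, with 2.10% of all probes. SAM with rank products called 2 members, Psmb8 and Psmb9, and 1.34% of all probes higher.

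Psmb9 had the largest value, 0.27 ± 0.10 SE or 1.21-fold (95% interval 0.05 to 0.49, limma adjusted p = 0.967). Its ratios were 0.36, 0.57, 0.20 and -0.04. Psmb8 had ratios of 0.37, 0.21, 0.24 and -0.02 and a log2 fold change of 0.20 ± 0.09 SE. Both subunits were thus above 0 on the same 3 arrays and just below 0 on the array of replicate 4. Psmb10 was the only member above 0 on all 4 arrays, as were 5.06% of all probes, with ratios of 0.12, 0.07, 0.11 and 0.09 and a log2 fold change of 0.10 ± 0.05 SE. Against their constitutive partners the within-array differences were 0.23 ± 0.17 (SD) for Psmb8 and 0.26 ± 0.18 for Psmb9, positive on all 4 arrays (exact permutation p = 0.125, the smallest possible), and 0.14 ± 0.28 for Psmb10 (exact permutation p = 0.5). The last was 0.05 without replicate 4 and 0.27 without replicate 3.

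The class I chains had ratios of similar size. H2-K1 had ratios of 0.16, 0.17, 0.37 and -0.09 (log2 fold change 0.15 ± 0.10 SE). H2-D1 had ratios of 0.39, 0.27, 0.20 and -0.31 (0.14 ± 0.10 SE). B2m had ratios of 0.33, 0.18, 0.21 and -0.12 (0.15 ± 0.11 SE). In all 3 the BK_APP and APP_WT intensities overlapped, and the SD between arrays was larger than the mean ratio.

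Of the transport and loading genes, Tap2 had ratios of 0.32, 0.06, 0.35 and -0.06 (log2 fold change 0.17 ± 0.09 SE). Tap1 had ratios of 0.12, -0.05, 0.25 and -0.18 (0.03 ± 0.08 SE). Tapbp had ratios of -0.03, -0.16, 0.24 and -0.12 (-0.02 ± 0.07 SE), and its sign turned under median centring, to 0.053. Nlrc5 had ratios of 0.33, 0.28, 0.13 and -0.08 (0.17 ± 0.08 SE). Tap2 and Nlrc5 were thus above 0 on 3 of 4 arrays, Tap1 on 2 and Tapbp on 1.

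The array of replicate 4 differed from the other 3 for nearly all members. The median ratio of the 10 genes was 0.32, 0.17 and 0.22 on the arrays of replicates 1 to 3 and -0.08 on that of replicate 4, where 9 of 10 were below 0. Without replicate 4 the median log2 fold change was 0.25, and without replicate 3 it was 0.06, and no member was called in either case. The median ratio of the microglial markers measured on all arrays was 0.21, 0.13, 0.09 and 0.0012 on these arrays.

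HOE-140 likewise left the 10 genes without a call. In HOE_APP versus APP_WT, in the likely direction, 9 of 10 had a negative log2 fold change and Nlrc5 a positive one, with a median of -0.15 against 2e-04 over all probes. With median centring in place of loess the median was -0.0493, and 7 of 10 were negative. No member was called by limma (the smallest adjusted p among them was 0.924), and 0% of all expressed probes were. At an unadjusted p below 0.05, 1 member was lower, with 2.72% of all probes. SAM with rank products called 3 members, H2-K1, B2m and Tap2, and 2.06% of all probes lower. The same 3 were below 0 on all 4 arrays, as were 4.98% of all probes. With the sign of these arrays turned, each of these counts and shares would read as higher in HOE_APP.

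H2-K1 had the lowest value, with ratios of -0.46, -0.15, -0.0026 and -0.35 and a log2 fold change of -0.24 ± 0.10 SE (95% interval -0.45 to -0.02, limma adjusted p = 0.924). The second H2-K1 probe gave -0.14 ± 0.10 SE, and its interval included 0. That probe was above 0 on replicate 3, at 0.15, and was not called by SAM with rank products. B2m had ratios of -0.20, -0.08, -0.07 and -0.49 (-0.21 ± 0.11 SE). H2-D1 had ratios of -0.17, 0.06, 0.01 and -0.49 (-0.15 ± 0.10 SE), with HOE_APP and APP_WT intensities that overlapped.

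Tap2 was the only member whose HOE_APP and APP_WT intensities on the HOE_APP arrays did not overlap. This held, with HOE_APP lower in the likely direction, for 0.330% of all probes. Its log2 intensities on these arrays were 11.08, 11.13, 11.14 and 11.12 in HOE_APP and 11.32, 11.31, 11.19 and 11.42 in APP_WT. Over all 12 arrays the APP_WT intensities of Tap2 ran from 11.03 to 11.42 and overlapped those of HOE_APP. The log2 fold change was -0.19 ± 0.09 SE (limma adjusted p = 0.924). Tap1 had ratios of -0.16, -0.17, 0.23 and -0.11 (-0.05 ± 0.08 SE), with replicate 3 alone above 0.

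Tapbp had ratios of -0.21, -0.25, 0.08 and -0.03 (log2 fold change -0.10 ± 0.07 SE), and median centring turned it to 0.013. Psmb8 had ratios of -0.17, -0.15, 0.05 and -0.32 (-0.14 ± 0.09 SE). Psmb9 had ratios of -0.16, 0.07, -0.11 and -0.53 (-0.18 ± 0.10 SE). These 3 genes were each below 0 on 3 of 4 arrays, and none passed the test. Against their constitutive partners the within-array differences were -0.18 ± 0.23 (SD) for Psmb8, -0.21 ± 0.15 for Psmb9 and -0.16 ± 0.16 for Psmb10 (exact permutation p = 0.25, 0.125 and 0.25). Without replicate 4 the difference for Psmb8 was -0.06.

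Psmb10 had ratios of -0.16, -0.04, 0.03 and -0.06 (log2 fold change -0.06 ± 0.05 SE), and median centring turned it to 0.076. Nlrc5 had ratios of 0.19, -0.02, 0.22 and -0.09 (0.07 ± 0.08 SE). The median ratio of the 10 genes was -0.17, -0.11, 0.02 and -0.31 on the 4 arrays, and that of the microglial markers was -0.16, -0.10, -0.03 and -0.09. Without replicate 4 the median log2 fold change of the 10 genes was -0.07, and without replicate 3 it was -0.24.

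The untreated values differed by replicate number. Among the 4 APP_WT intensities of each gene, replicate 4 was the highest for 8 of 10 members on the arrays shared with WT, for 7 of 10 on those shared with BK_APP and for 8 of 10 on those shared with HOE_APP. How often this held over all probes was not counted, so it cannot be read as particular to these genes. For H2-K1 the APP_WT intensity of replicate 4 was 12.62, 12.68 and 12.70 in the 3 comparisons, and that of replicate 3 was 11.91, 12.06 and 12.02. For this gene, equal numbers thus gave close values on different arrays. The labels do not say that equal numbers mark the same RNA. Here and below, the channel read as APP_WT on the HOE_APP arrays rests on the likely direction.

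The 4 APP_WT values of a gene spread more than the 4 treated values for 9 of 10 members in both treated comparisons. The share of all probes with a wider APP_WT spread was not counted either. The median range over the members was 0.48 for APP_WT and 0.26 for BK_APP on the same arrays, and 0.47 for APP_WT and 0.27 for HOE_APP. A ratio of treated to untreated neurospheres carries the spread of both.

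**Figure D4:**
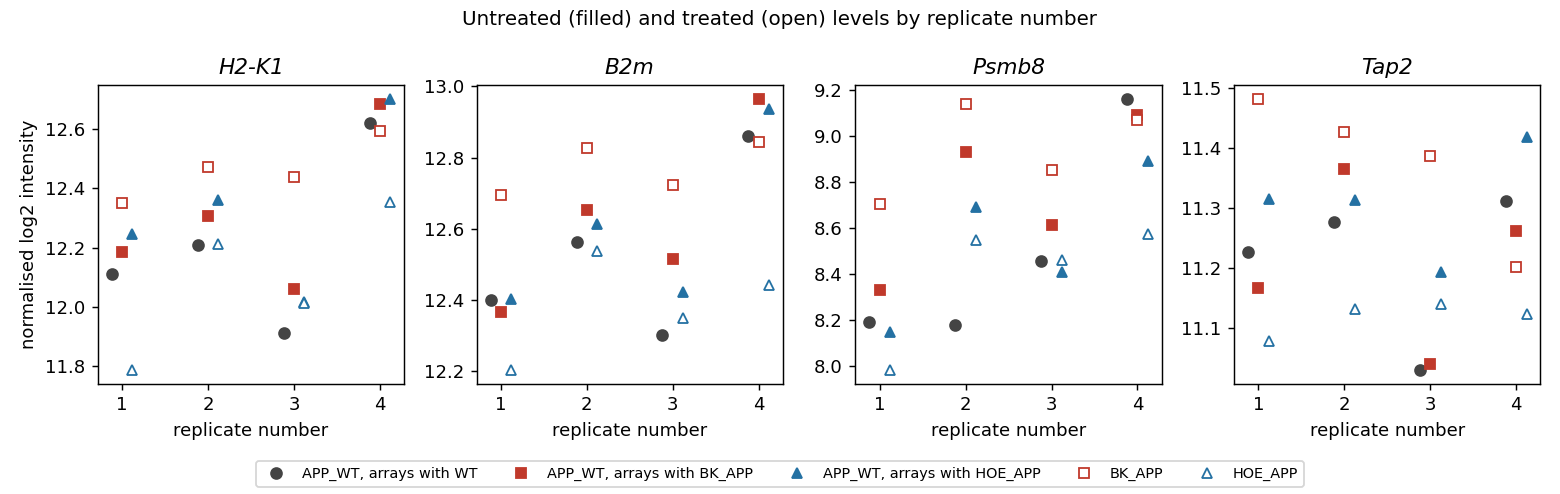
Normalised log2 intensity (vertical axis) of H2-K1, B2m, Psmb8 and Tap2 by replicate number, with APP_WT as filled symbols, BK_APP as open squares and HOE_APP as open triangles. For H2-K1 the APP_WT points of replicate 4 lie between 12.62 and 12.70 and those of replicate 3 between 11.91 and 12.06, while BK_APP lies between 12.35 and 12.59 in all replicates.

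The 2 treatments, both at 1 µM, were not hybridised together and were compared through their ratios to APP_WT, which gave a positive difference for all 10 genes. BK_APP minus HOE_APP ran from 0.09 to 0.46 with a median of 0.31, against -0.0025 over all probes. None passed limma's adjusted threshold (adjusted p of 1), and 0% of all expressed probes did. At an unadjusted p below 0.05, 5 members were higher, with 1.20% of all probes. Both ratios share untreated APP_WT samples, and the difference rests on the likely direction of the HOE_APP arrays: with that sign turned the median was -0.02. Without 1 array the median lay between 0.20 without HOE_APP replicate 4 and 0.41 without HOE_APP replicate 3.

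The 5 were Psmb9 at 0.46 (95% interval 0.14 to 0.77), H2-K1 at 0.39 (0.09 to 0.70), Tap2 at 0.36 (0.08 to 0.64), B2m at 0.36 (0.0031 to 0.71) and Psmb8 at 0.34 (0.05 to 0.64). The intervals of the other 5 included 0, from Tap1 at 0.09 (-0.15 to 0.33) to H2-D1 at 0.28 (-0.04 to 0.61). The second H2-K1 probe gave 0.27 with an interval that included 0 (-0.06 to 0.60), so the place of H2-K1 among the 5 rests on its brighter probe. The fit takes the BK_APP and HOE_APP ratios as independent. With the APP_WT replicate as a signed block, 7 members had an unadjusted p below 0.05, H2-D1 and Psmb10 among them. So had 1761 of all 29361 expressed probes in either direction, against 733 in the fit without this block. No member passed after adjustment (the smallest limma adjusted p among them was 0.473). Over the 10 genes the upper ends of the intervals reached up to 0.77 on the log2 scale. For the constitutive subunits the difference was -0.06 for Psmb5, -0.02 for Psmb6 and -0.14 for Psmb7, and none passed the test.

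**Figure D5:**
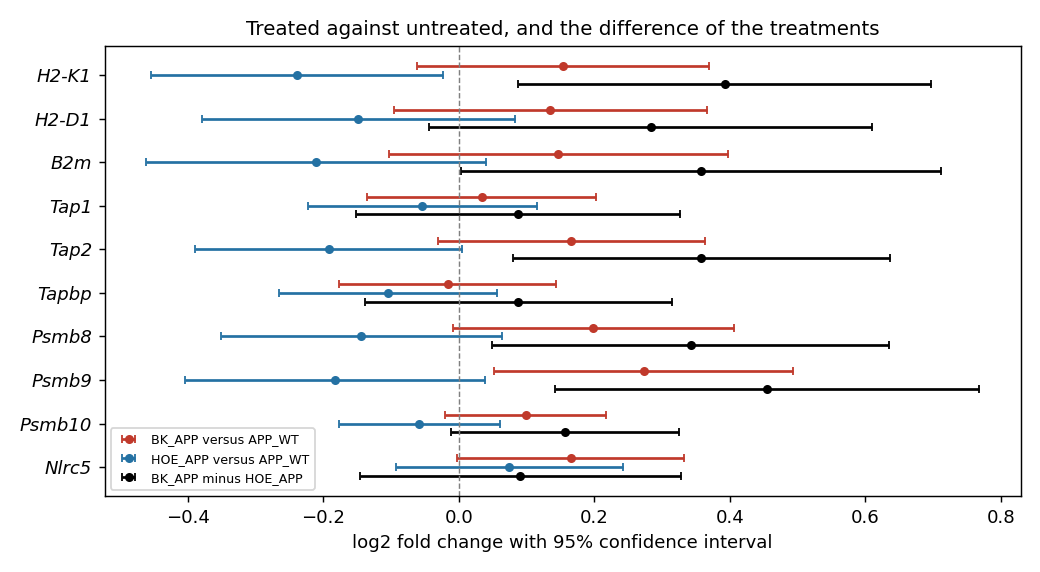
Log2 fold change with 95% confidence interval (horizontal axis) of each gene in BK_APP versus APP_WT (red), in HOE_APP versus APP_WT (blue) and as the difference of the treatments (black), from the limma fit of 12 arrays. All black points lie above 0, from 0.09 to 0.46, and 5 of their 10 intervals exclude 0 before any adjustment.

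In the lists of the pathway no gene was called in BK_APP versus APP_WT, in HOE_APP versus APP_WT or in the difference. The median difference was 0.10 for the non-classical class I genes, 0.05 for the regulators and -0.02 for the remaining 20S core. Irf1 had log2 fold changes of 0.23 in BK_APP versus APP_WT and -0.09 in HOE_APP versus APP_WT. H2-T23 had 0.14 and -0.13, with ratios from -0.37 to 0.38 in the first and from -0.41 to 0.18 in the second.

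The members varied together over the arrays. Over all 12 arrays, which include the large APP_WT versus WT ratios, the Pearson r between 2 members ran from 0.84 to 0.99. Over the 8 arrays of treated neurospheres, where the APP_WT samples are shared, it ran from -0.0076 to 0.96 with a median of 0.72. Tapbp was least like the rest there, with a mean r of 0.41 to the other 9. Psmb8 was most like them, with a mean r of 0.80.

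The genes outside the 10 whose ratios were most like the mean of the members over 12 arrays were Rac2, Tnfrsf1a, Ifi27, Ecscr and Igtp, with r from 0.992 to 0.995. Over the 8 treated arrays they were Aif1, P2ry6, Fcer1g, Ch25h and Cd52, with r from 0.961 to 0.986. Aif1, which encodes Iba-1 and marks microglia, had log2 fold changes of 2.21 in APP_WT versus WT, 0.22 in BK_APP versus APP_WT and -0.08 in HOE_APP versus APP_WT. Igtp, an interferon-induced GTPase, had 1.94, 0.11 and -0.32. These correlations describe arrays that share samples and dyes, and no test was made of them.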

How the data were processed

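The authors hybridised Agilent SurePrint G3 mouse arrays and deposited the scanner output, 2-colour intensities of 62976 spots an array, and a table of log2 ratios for 31882 spots, whose column medians ran from -0.155 to 0.036 and whose direction matched the one used here. Median intensities were corrected here by normexp (offset 50) and loess (span 0.3) in limma 3.58.1 under R 4.3.3. Ratios were turned by dye, and spots of a probe averaged. A probe was expressed if well above background on at least 3 of 4 arrays in a condition of any comparison. The 12 arrays shared 1 fit with dye terms by comparison, with Benjamini-Hochberg adjustment over all expressed probes. Intensities per condition came after Aquantile scaling. Each gene was read at its brightest expressed probe. From each list the genes of largest and smallest fold change in APP_WT versus WT were named, with Psmb5, Psmb6 and Psmb7. The arrays with WT lay on another slide than the others. The methods call the replicates independent and biological. The members and lists were chosen with earlier results of these data known. The fit was tested on simulated data. After comparison and dye means were removed, equal replicate numbers correlated over probes at 0.42 and 0.43 between BK_APP and HOE_APP arrays, and at -0.51 to -0.21 between these and the WT arrays, where APP_WT is the numerator. For HOE_APP these signs hold in the likely direction. Alternatives changed the background correction, normalisation, filter, dye term, weights, block and probes, or left out 1 array. The number of arrays limits the precision. Some items are not reported here.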

Additional observations from a re-analysis of the deposited data

Results flagged for a closer look

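Among 30 sets of 4 ratios, Tap1 in HOE_APP versus APP_WT was singled out because replicate 3, at 0.23 on the log2 scale, lay far above the other 3 (-0.16, -0.17 and -0.11). Chance alone singles out about 5% of such sets. No member lay above 0 on all 4 arrays of one treatment and below 0 on all 4 of the other.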

How the results depend on the processing

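All 10 members stayed called higher in APP_WT versus WT under every alternative run, and 0 were called in the treated comparisons under every alternative fitted with limma. SAM with rank products called 2 members and 701 probes in BK_APP versus APP_WT and 3 members and 868 probes in HOE_APP versus APP_WT. Probes called in APP_WT versus WT numbered 5446, and 1834 in separate fits with no dye term. With the replicate number as a block they numbered 4170, and the members called were unchanged at 10, 0 and 0. With the block signed for the pairing through APP_WT, an alternative chosen after seeing the data, 8265 probes were called in APP_WT versus WT and 3 in HOE_APP versus APP_WT. With this block 6, 5 and 7 members had an unadjusted p below 0.05 in BK_APP versus APP_WT, HOE_APP versus APP_WT and the difference of the treatments. So had 3327, 3750 and 1761 of all 29361 expressed probes, in either direction. In the main fit 1311, 1476 and 733 probes did, so the block raised these counts over the whole array. Median centring turned Tapbp to 0.053 and 0.013 in BK_APP and HOE_APP versus APP_WT and Psmb10 to 0.076 in the latter, where the median of the members was -0.0493. Leaving out 1 array turned values near 0. In BK_APP versus APP_WT, Tap1 ranged from -0.073 to 0.14 and Tapbp from -0.11 to 0.076. In HOE_APP versus APP_WT, Tap1 ranged from -0.14 to 0.031 and Nlrc5 from -0.0023 to 0.15. Probes called without 1 array ranged from 0 to 62 in BK_APP versus APP_WT (62 without replicate 1, 2 without replicate 2 or 4), from 0 to 9 in HOE_APP versus APP_WT (9 without replicate 4), from 0 to 13 in the difference of the treatments (13 without BK_APP replicate 1, 2 without BK_APP replicate 2, 6 without HOE_APP replicate 4) and from 3772 to 5550 in APP_WT versus WT. With the sign of HOE_APP turned the median difference was -0.0165. The cause of these shifts was not tested. Low signal over background limits Tap1, Psmb8, Psmb9 and Nlrc5.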
